A study of Schizosaccharomyces pombe with 6 samples.

Results

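Ribosome biogenesis factor genes of fission yeast (Schizosaccharomyces pombe) were examined for the position and use of their transcription start sites. Members were taken by symbol: utp, rrp or nop followed only by digits, together with fib1, gar1, gar2, nhp2, cbf5, imp3, imp4, mpp10 and bms1. The rule found 62 of 5113 annotated protein-coding genes. Of these, rrp1 and rrp2 are annotated as a DNA helicase and a DNA translocase with SUMO-targeted ubiquitin ligase activity, so they share the symbols but not the function, which leaves 60. Capped 5′ ends were counted by CAGE (cap analysis of gene expression), in which each sequenced tag marks the first base of an RNA. The wild type, of genotype h- ade6-M210 leu1-32 ura4-D18, was compared with a mutant that carries fft2::kan and fft3::hph, with 3 libraries in each group. Fft2 and Fft3 are related SNF2-family chromatin remodelling ATPases, and the series asks whether loss of both moves start sites. Per the labels' protocols both strains grew in YES medium at 30 °C and 180 rpm and were were collected in mid-log phase. Cultures were grown in duplicate per the same protocols but each group has 3 libraries, so some may come from the same culture, and the p-values then measure only how libraries vary.

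Ribosome production starts in the nucleolus, where RNA polymerase I transcribes the ribosomal RNA precursor. The small-subunit processome (UTP-A, UTP-B, UTP-C, the Mpp10 complex, the U3 snoRNP and further factors) folds and cleaves the part of the precursor that becomes the small subunit, while another set of factors matures the large subunit. Box C/D snoRNPs methylate ribosomal RNA, box H/ACA snoRNPs convert uridine to pseudouridine, and the RNA exosome trims and degrades precursors from the 3′ end. In growing yeast the genes for these factors tend to be regulated together with those for ribosomal proteins.

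Libraries held 12681906 to 20072985 tags in the wild type and 19861880 to 23242895 in the mutant, of which 91.2% to 92.3% lay in the 108138 deposited tag clusters. Values are in TPM (tags per 1000000 tags of the library), and a gene's promoter level adds up the same-strand clusters with a summit between 500 bp upstream and 100 bp downstream of the annotated start, or the start codon if it lies further. A cluster in the windows of several genes was counted only for the gene with the nearest annotated start, non-coding genes included. The level of a gene with a close same-strand neighbour can therefore leave out clusters in its window. CAGE counts 5′ ends, so levels of different genes need no correction for length. Group values below are means ± SD with n = 3. The fft2 promoter was lower in every mutant library (67.6 ± 1.2 against 11 ± 0.763 TPM) and the fft3 promoter was higher (71.2 ± 29.2 against 174 ± 47.4 TPM). Promoter tags can lie outside the part replaced in each gene, so the fft3 value does not check the label. Wild-type replicate 2 stood apart in mei2, a meiotic regulator, at 189.9 TPM against 7.42 and 9.61 TPM in the other wild-type libraries. The same held in zym1, a metallothionein gene, at 53.6 TPM against 9.17 and 9.11 TPM. Mutant libraries had 34.2, 57.0 and 68.7 TPM in mei2 and 119, 144 and 145 TPM in zym1. In whole-cell RNA, fewer cells that express a gene cannot be told apart from less RNA per cell.

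The 120 bases upstream of the annotated start are shown for 6 of the 7 genes whose promoter level fell in the mutant, from the RefSeq genome of build ASM294v3, 5′ to 3′ on the strand of the gene. Capitals mark exact matches, on either strand, to the motifs searched (TATA box TATAAA, RRPE AAAATTTT, PAC GATGAG, HomolD CAGTCACA and the HomolE core ACCCTACC), and none of the 5 motifs contains another.
gar1, chrII:3283217-3283336, plus strand: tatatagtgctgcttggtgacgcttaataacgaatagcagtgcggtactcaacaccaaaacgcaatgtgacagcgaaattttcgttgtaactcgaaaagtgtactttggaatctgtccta
rrp14, chrI:3659065-3659184, minus strand: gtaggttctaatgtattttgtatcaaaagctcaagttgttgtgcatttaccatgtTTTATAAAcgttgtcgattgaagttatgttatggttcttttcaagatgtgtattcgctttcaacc
utp23, chrIII:1978533-1978652, minus strand: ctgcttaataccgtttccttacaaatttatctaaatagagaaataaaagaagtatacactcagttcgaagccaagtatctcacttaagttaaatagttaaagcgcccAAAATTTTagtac
utp13, chrIII:869567-869686, plus strand: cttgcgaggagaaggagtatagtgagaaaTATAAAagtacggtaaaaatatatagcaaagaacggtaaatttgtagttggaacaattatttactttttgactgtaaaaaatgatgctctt
rrp8, chrI:1140489-1140608, plus strand: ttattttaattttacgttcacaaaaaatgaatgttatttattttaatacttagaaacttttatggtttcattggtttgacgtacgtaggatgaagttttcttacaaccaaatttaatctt
utp25, chrIII:2376228-2376347, minus strand: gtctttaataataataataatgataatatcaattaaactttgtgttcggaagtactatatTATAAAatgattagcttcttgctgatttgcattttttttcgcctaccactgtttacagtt
Of these 120-base stretches, those of utp25, rrp14 and utp13 hold a TATA box (in rrp14 overlapping matches on both strands) and that of utp23 an RRPE. None of the motifs occurs in the stretches of gar1 and rrp8.

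The promoters of 3 other genes are shown for contrast: fib1, the fibrillarin gene, whose level did not pass the test and which has 2 RRPE matches; mpp10, the one gene of the set with HomolD, the element that marks ribosomal protein promoters in this yeast; and rpl2102, a ribosomal protein gene with HomolD.
fib1, chrII:2983711-2983830, minus strand: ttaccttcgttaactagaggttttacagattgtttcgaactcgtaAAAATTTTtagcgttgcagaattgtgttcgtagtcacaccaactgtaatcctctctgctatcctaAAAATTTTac
mpp10, chrI:2135813-2135932, plus strand: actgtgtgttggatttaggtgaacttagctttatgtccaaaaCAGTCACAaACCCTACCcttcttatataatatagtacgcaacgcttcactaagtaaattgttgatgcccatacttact
rpl2102, chrI:3400408-3400527, plus strand: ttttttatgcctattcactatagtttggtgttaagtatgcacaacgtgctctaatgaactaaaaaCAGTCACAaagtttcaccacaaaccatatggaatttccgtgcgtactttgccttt
The 250 bases upstream of the start were searched on both strands. HomolD was found in 1 of the 62 genes of the set (1.61%), in 62.6% of the 139 ribosomal protein genes and in 2.62% of all protein-coding genes. The HomolE core was found in 2 of the 62 (mpp10 and rrp1402), in 29.5% of ribosomal protein genes and in 1.51% of all protein-coding genes. The RRPE, which in budding yeast marks promoters of rRNA processing genes, was found in 9 of the 62 (14.5%), among them fib1, imp3, nop2, rrp14, utp22, utp23, utp502 and utp7. Its share over all protein-coding genes was 7.00%. The PAC element, its usual partner in budding yeast, was found in 3 of the 62 (4.84%), nop16, nop8 and utp24, against 6.85% of protein-coding genes. TATAAA was found in 30 of the 62 (48.4%) against 44.4%. A match is a description of these letters and not a binding site.

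All 62 genes had at least 1 cluster in the window, and 59 averaged 1 TPM or more across libraries and were tested. The wild-type level of the 59 ran from 3.18 TPM (rrp43) to 1464 TPM (gar2), with a median of 69.9 TPM against 28.8 TPM for all protein-coding genes tested. Together they held 7713, 6991 and 7659 TPM in wild-type replicates 1 to 3 and 6157, 6428 and 6324 TPM in mutant replicates 1 to 3. Thus every mutant sum lay below every wild-type sum. Of the 3 genes not tested, nop10 (a box H/ACA subunit) had 0.315 to 0.996 TPM, rrp1 had 0.697 to 1.18 TPM and utp16 had 0.253 to 0.646 TPM. For utp16 a cluster on the gene's own strand 264 bp downstream of its annotated start, past the window, held 31.6, 44.9 and 36.8 TPM in wild-type and 27.8, 37.8 and 41.7 TPM in mutant libraries. The groups overlapped there (log2 -0.09, limma adjusted p = 0.752).

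**Figure D1:**
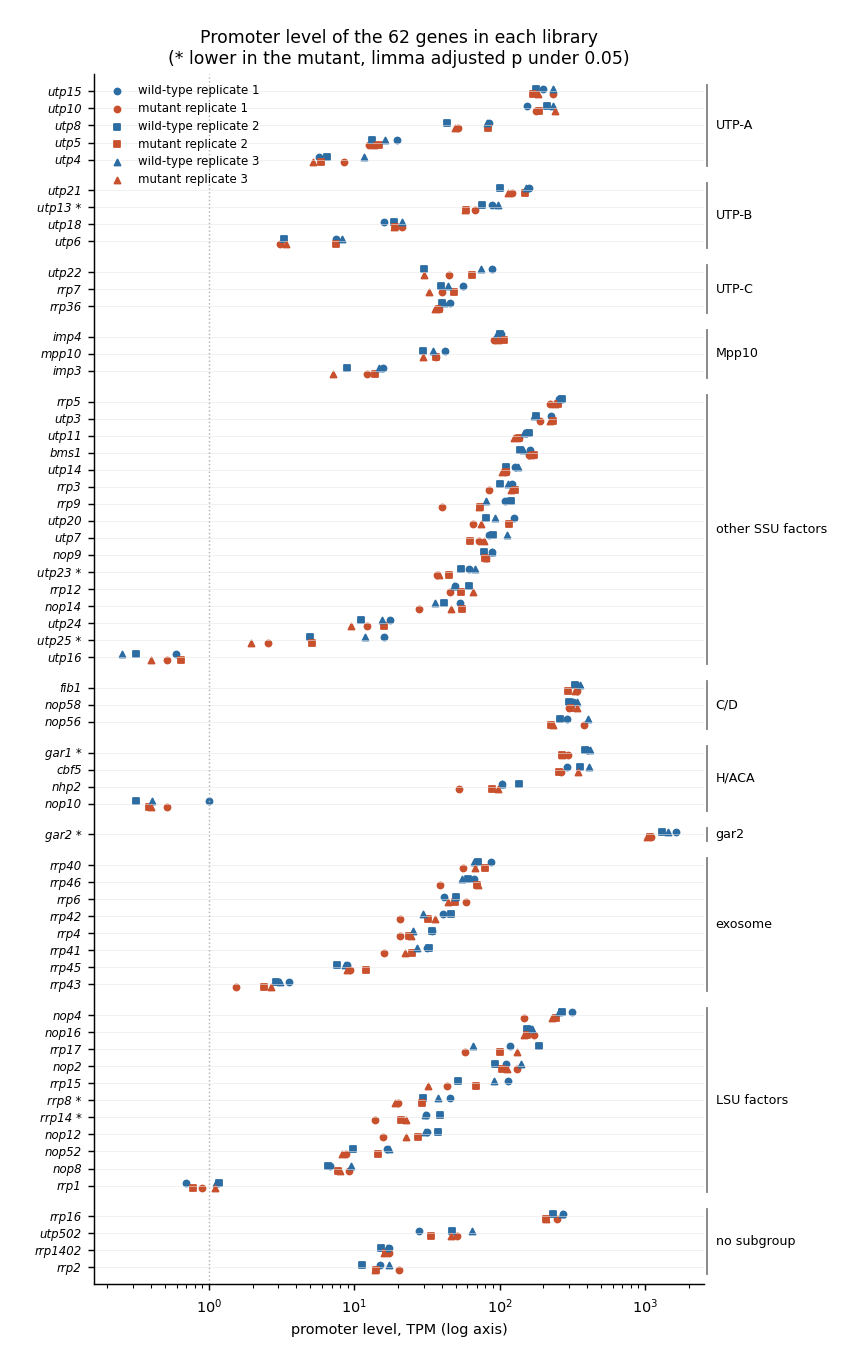
Promoter level of the 62 genes in each library (TPM, log axis), grouped by role and ordered by wild-type level, with blue points for wild-type and orange points for mutant libraries. An asterisk marks the 7 genes lower in the mutant, gar2 is the highest at 1464 TPM in the wild type, and nop10, rrp1 and utp16 lie at or under about 1 TPM. By its symbol alone, rrp1 is drawn with the large-subunit factors, and rrp2 is in no subgroup.

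Start sites of most tested genes were concentrated. The main cluster's summit, the position of most tags, lay 1 bp downstream of the annotated start in 50 of 59 genes (77.1% of protein-coding genes). It lay within 10 bp in 58 (86.8% of protein-coding genes). The deposited summit coordinate itself lies 1 bp after the initiator, since a pyrimidine-purine step ended at the base before it in 97.9% to 98.6% of promoter clusters per chromosome, against 23.1% to 23.2% of genome positions. The exception was nop8, a large-subunit factor gene, whose main summit lay at position -282 from its annotated start. In 57 genes a single cluster reached 1 TPM, and the median share of the main cluster was 99.7% (99.2% over protein-coding genes). The distance from the initiator, the base before the main summit, to the start codon had a median of 55 bp. It ran from 9 bp in rrp40 to 411 bp in utp4. Over protein-coding genes whose initiator lay upstream of the start codon the median was 99 bp. The exceptions to a single cluster of at least 1 TPM were nop16 and utp14. The latter had a second cluster 159 bp upstream at 7.14 ± 0.831 TPM in wild-type and 7.35 ± 0.694 TPM in mutant libraries. The lowest main cluster share was 57.7%, in the low gene rrp43. Its second cluster, at position 161, had 1.27 ± 0.178 TPM in wild-type and 0.575 ± 0.303 TPM in mutant libraries.

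Promoter levels of the biogenesis genes were, on balance, modestly lower in the mutant, and none was called higher. By limma across all 5610 genes tested with Benjamini-Hochberg adjustment at 0.05, 7 of 59 fell: gar1, rrp14, utp23, utp13, gar2, rrp8 and utp25. That is 11.9%, near the 9.65% of protein-coding genes called lower under the scaling as deposited. Without rrp1 and rrp2, 7 of 58 fell and 48 of the 58 had a log2 fold change below 0. No member was called higher, against 16.9% of protein-coding genes, and none had an unadjusted limma p under 0.05 in that direction (background 24.1%), whereas 14 of 59 did towards lower levels (background 14.5%). The log2 fold change was below 0 in 48 of 59 genes, against 42.9% of protein-coding genes, with a median of -0.20 against 0.08 for protein-coding genes and 0.13 for all genes tested. The mutant libraries all lay below the wild-type ones in 17 genes (background 15.6%) and all above in 1, rrp45 (background 27.1%). These contrasts with the background were described and not tested.

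The number of falls depends on scaling. With median-of-ratios or TMM scaling, which brings the all-gene median from 0.13 to -0.01 or -0.02, 16 or 17 members were lower and still none higher, with a median of -0.35 or -0.36. These are 27.1% or 28.8% of members, against 16.1% or 16.7% of protein-coding genes. On recovered tags, edgeR called 16 lower (27.1%, background 16.2%) and DESeq2 19 (32.2%, background 18.7%). The 7 genes were among those called in all of these fits, as were nop12, nop4, rrp15, rrp4, rrp41, rrp9, utp11 and utp7. Both scalings also called rrp43, while TMM scaling, edgeR and DESeq2 called utp14. DESeq2 alone called nhp2, rrp36 and rrp5. Leaving out 1 library gave 3 calls without wild-type replicate 1 or mutant replicate 3, in both cases gar1, rrp14 and utp23 (background 6.25% and 5.66%), and up to 9 without mutant replicate 2 (background 8.56%).

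**Figure D2:**
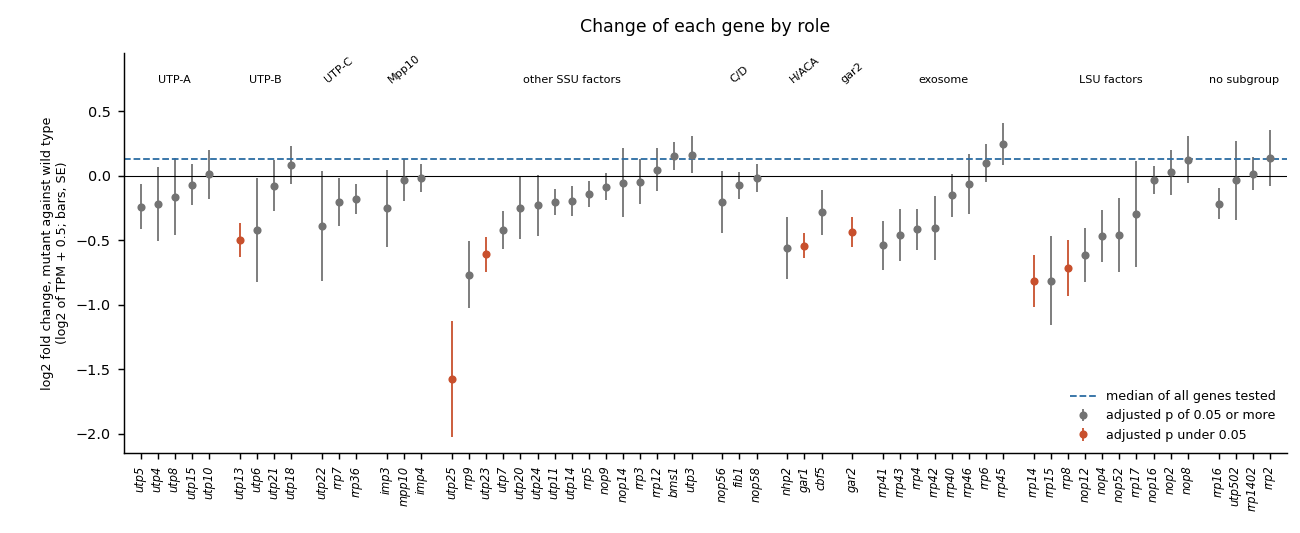
Log2 fold change (mutant against wild type, log2 of TPM + 0.5) of the 59 tested genes by role, with standard errors, orange where the limma adjusted p was under 0.05. Most points lie below 0 and nearly all (55 of 59) below the dashed line at the median of all genes tested, 0.13.

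Among small-subunit processome genes, 3 of 30 fell (background 9.65%) and 25 had a log2 fold change below 0 (background 42.9%). Subgroups are small, and their counts were not tested against these shares. The UTP-A complex, which binds the 5′ end of the precursor first, had 5 genes tested and none called, with log2 changes from -0.24 (utp5) to 0.01 (utp10). Its 3 highest genes were utp15 at 203.6 ± 27.8 and 194.8 ± 32.7 TPM in wild type and mutant, utp10 at 200.6 ± 41.5 and 200.9 ± 33.8 TPM, and utp8 at 69.9 ± 22.9 and 61.7 ± 19.2 TPM. In UTP-B, a second early complex, utp13 fell, 1 of 4 genes tested (background 9.65%). It had 88.4, 76.3 and 97.0 TPM in wild-type and 67.5, 58.9 and 58.2 TPM in mutant libraries. All mutant libraries lay below all wild-type libraries (log2 -0.50, SE 0.13, limma adjusted p = 0.023). The call did not survive leaving out replicate 1 or 3 of the wild type, or 2 or 3 of the mutant. Of the other UTP-B genes, utp21 had 137.8 ± 32.4 and 128.8 ± 18.4 TPM, utp18 18.7 ± 2.68 and 19.7 ± 1.24 TPM, and utp6 6.34 ± 2.65 and 4.66 ± 2.47 TPM.

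UTP-C and its partners (utp22, rrp7 and rrp36) and the Mpp10 complex (mpp10, imp3 and imp4), which docks with the U3 snoRNA, had no gene called. In UTP-C the log2 changes ran from -0.39 to -0.18, and in the Mpp10 complex from -0.25 to -0.02. The utp22 gene varied 2.97-fold within the wild type, with 89.3, 30.1 and 74.4 TPM against 44.7, 64.9 and 30.4 TPM in the mutant, and the groups overlapped. The imp4 gene was even across all 6 libraries, at 103, 101 and 96.0 TPM in wild-type and 91.9, 107 and 98.1 TPM in mutant libraries.

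Of 15 further small-subunit factors tested, utp23 and utp25 fell (background 9.65%). The utp23 product acts in budding yeast with the snR30 snoRNA in early small-subunit assembly. Its promoter had 61.8, 54.6 and 67.4 TPM in wild-type and 36.9, 44.6 and 38.6 TPM in mutant libraries, without overlap (log2 -0.61, SE 0.13, limma adjusted p = 0.0106). The utp25 gene, for a U3-associated protein, had the largest fold change of the set. It had 16.1, 4.97 and 11.8 TPM in wild-type and 2.54, 5.13 and 1.96 TPM in mutant libraries (log2 -1.58, SE 0.45, limma adjusted p = 0.0302). Mutant replicate 2 lay just above wild-type replicate 2, so the groups overlapped by 1 library, and the call was lost when any library but wild-type replicate 2 or mutant replicate 2 was left out.

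Of the other genes of this class, rrp9 and utp7 came close to the threshold. The rrp9 gene, for a protein specific to the U3 snoRNP, had 110, 120 and 80.5 TPM in wild-type and 40.1, 73.4 and 72.7 TPM in mutant libraries (log2 -0.77, limma adjusted p = 0.0564), and utp7 had 95.5 ± 15.1 and 71.0 ± 7.6 TPM (log2 -0.42, limma adjusted p = 0.0641). Neither overlapped between groups. The class's highest genes, rrp5 (a factor of both subunits), utp3 and utp11, had 263.3 ± 6.75 and 238.7 ± 15.1 TPM, 192.8 ± 28.7 and 215.2 ± 23.5 TPM, and 153.1 ± 6.05 and 132.7 ± 5.56 TPM in wild type and mutant. The log2 changes furthest above 0 were 0.16 for utp3 and 0.15 for bms1, which encodes the processome GTPase and had 148.7 ± 12.1 and 165.3 ± 6.34 TPM. Both groups overlapped.

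Of the snoRNP core genes, 3 box C/D and 3 box H/ACA genes were tested, and 1 fell (background 9.65%). The box C/D genes were not called, with fib1, the methyltransferase, at 339.6 ± 14.2 and 322.7 ± 21.7 TPM, nop58 at 321.5 ± 19.9 and 317.5 ± 20.4 TPM, and nop56 at 318.7 ± 76.7 and 280.1 ± 85.9 TPM. Their log2 changes lay between -0.20 and -0.02. In the box H/ACA class gar1 fell. It had 399, 390 and 422 TPM in wild-type and 294, 270 and 269 TPM in mutant libraries (log2 -0.54, SE 0.10, limma adjusted p = 0.00472), so the lowest wild-type library was well above the highest mutant library. Of the 7 falls it was the one called in every alternative fit. The nhp2 gene had a log2 change of similar size with more spread, 103, 136 and 105 TPM against 52.7, 88.4 and 98.3 TPM, without overlap (log2 -0.56, limma adjusted p = 0.112). The pseudouridine synthase gene cbf5 had 354 ± 61.8 and 290.6 ± 50.3 TPM (log2 -0.28, limma adjusted p = 0.246). Whether the box H/ACA and box C/D classes differ was not tested.

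The gar2 gene encodes a nucleolin-like protein and was the highest of the set. It had 1634, 1318 and 1440 TPM in wild-type and 1100, 1092 and 1037 TPM in mutant libraries. Every mutant library lay below every wild-type library, and the mutant libraries lay close together (log2 -0.44, SE 0.12, limma adjusted p = 0.0221). As for utp13, leaving out any of 4 libraries (wild-type 1 or 3, mutant 2 or 3) ended the call, with the log2 change between -0.45 and -0.36.

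Among 10 large-subunit factor genes tested, rrp14 and rrp8 fell (background 9.65%). A log2 change below 0 was seen in 8 (background 42.9%), and the median was -0.46. The rrp14 gene, annotated as Rrp14-N, had 31.1, 39 and 30.9 TPM in wild-type and 14, 20.9 and 22.7 TPM in mutant libraries (log2 -0.82, SE 0.20, limma adjusted p = 0.0178). The groups did not overlap, and without wild-type replicate 2 the limma adjusted p was 0.0543. The gene annotated as Rrp14-C, rrp1402, had 16.5 ± 1.06 and 16.7 ± 0.596 TPM. The ribosomal RNA methyltransferase gene rrp8 had 45.5, 30.0 and 37.5 TPM in wild-type and 20.1, 29.4 and 19.0 TPM in mutant libraries (log2 -0.72, SE 0.22, limma adjusted p = 0.0369). Wild-type replicate 2 and mutant replicate 2 were nearly level there, and the call ended when replicate 1 or 3 of either group was left out.

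Among the rest of this class, rrp15 had a log2 change as large as that of rrp14 but not past the threshold, at 114, 51.6 and 91.5 TPM against 43.7, 68.6 and 32.4 TPM (log2 -0.81, SE 0.35, limma adjusted p = 0.109). The groups overlapped. The nop12 gene, for an RNA-binding protein of pre-large-subunit particles, had 31.9, 37.6 and 30.6 TPM against 15.9, 27.6 and 22.8 TPM, without overlap (log2 -0.61, limma adjusted p = 0.0561). The 3 highest genes were nop4 at 280.1 ± 31.7 and 206.9 ± 52.6 TPM, nop16 at 161.7 ± 7 and 158.3 ± 13 TPM, and rrp17 at 123 ± 59.9 and 97.2 ± 37.4 TPM. The RNA methyltransferase gene nop2 had 114.8 ± 24.2 and 116 ± 14.6 TPM.

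None of the 8 exosome genes was called by limma with all 6 libraries under the scaling as deposited. A log2 change below 0 was seen in 6 (background 42.9%). With median-of-ratios or TMM scaling rrp4, rrp41 and rrp43 were called lower, and edgeR and DESeq2 each called rrp4 and rrp41. The highest were rrp40 (74.8 ± 10.5 and 67.6 ± 11.8 TPM), rrp46 (60.7 ± 5.86 and 59.9 ± 18.1 TPM) and rrp6, the nuclear exonuclease (47.1 ± 4.61 and 50.7 ± 7.31 TPM). In core subunits rrp4, rrp41 and rrp43 all mutant libraries lay below all wild-type ones (background 15.6%). The low rrp43 gene had 3.54, 2.92 and 3.09 TPM against 1.55, 2.41 and 2.67 TPM (log2 -0.46, limma adjusted p = 0.117). For rrp4 the values were 34.2, 34.1 and 25.4 TPM against 20.8, 23.9 and 24.7 TPM (log2 -0.42, limma adjusted p = 0.0812). The rrp41 gene had 31.8, 32.6 and 26.9 TPM against 16, 25 and 22.3 TPM (log2 -0.54, limma adjusted p = 0.0606). In the other direction, rrp45 had 8.87, 7.65 and 8.65 TPM against 9.29, 12.2 and 8.91 TPM, with all mutant libraries above all wild-type ones (log2 0.25, limma adjusted p = 0.296). Of the genes in no subgroup, rrp16 (258.6 ± 22.5 and 222.9 ± 23.3 TPM), utp502 (46.8 ± 18.6 and 43.7 ± 8.86 TPM), rrp1402 and rrp2 were not called.

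Libraries of one group differed from each other in many of these genes. Wild-type replicate 2 was the lowest wild-type library in 34 of 59 genes (57.6%, against 47.7% of protein-coding genes). Mutant replicates 1 and 3 were each the lowest mutant library in 25 genes (42.4% each, against 43.7% and 39.7% of protein-coding genes), and replicate 2 in 9 (15.3% against 16.6%). In 21 genes, gar2, utp22, rrp15, utp8 and utp25 among them, wild-type replicate 2 and mutant replicate 3 were both lowest (35.6%, against 26.6% of protein-coding genes). In another 14, among them rrp9, rrp14, rrp17, nop4, nop12, nop14 and 5 exosome genes, wild-type replicate 3 and mutant replicate 1 were both lowest (23.7% against 20.8%). The highest wild-type library exceeded the lowest at least 2-fold in 7 genes, by up to 3.24-fold in utp25 (11.9%, against 7.62% of protein-coding genes), and the same held for 5 genes in the mutant (8.47% against 8.41%). Wild-type replicate 2 is also the library high in mei2 and zym1, and the part of either in these levels was not tested. Without it the median log2 change of the members was -0.28, and without wild-type replicate 1 it was -0.12.

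**Figure D3:**
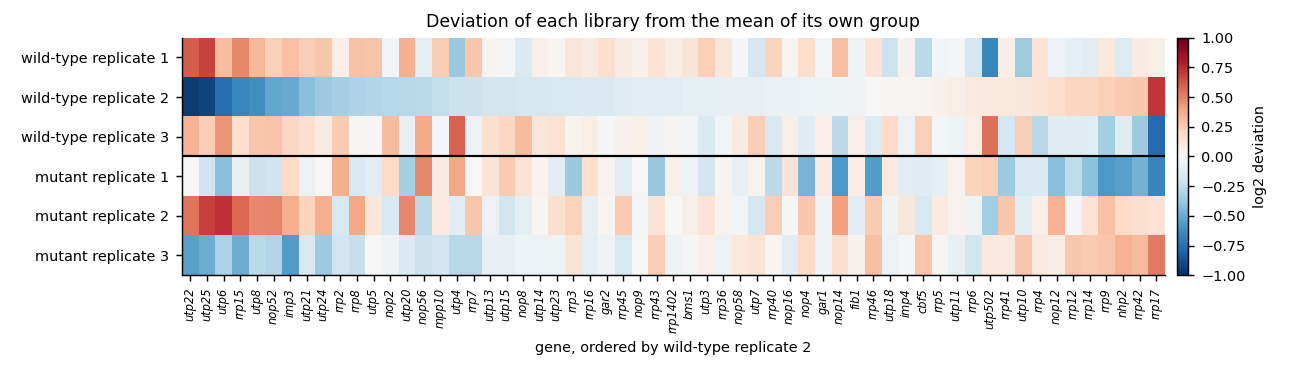
Log2 deviation of each library from the mean of its own group for the 59 tested genes, ordered by wild-type replicate 2 (blue, below the group mean; red, above). Wild-type replicate 2 is the lowest wild-type library in 34 genes, and utp22, utp25, utp6 and rrp15 at the left edge stand high in mutant replicate 2.

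Mean start positions moved in few genes. Since a cluster has 1 fixed summit, the deposited values show movement between clusters and not within one. Of 49 genes with at least 2 clusters and at least 5 TPM in every library, the tag-weighted mean start moved in 3 by limma (background 14.7% of 3513 genes), each time upstream. It moved by -4.43 bp in rrp46, -3.18 bp in rrp15 and -1.96 bp in nop16, with limma adjusted p of 0.0097, 0.00939 and 0.0338. With the window from 250 bp upstream the shift in rrp15 was -1.33 bp and not called. With the replicate number as a block none of the 3 was called, and nop16 was called in 1 of 6 fits that each left out a library. Single promoter clusters with a mean of at least 1 TPM numbered 61, of which 10 were lower (background 13%) and 1 higher (background 21.9%). The higher one lay 149 bp upstream of nop16 and had 0.399, 0.394 and 0.455 TPM in wild-type and 1.25, 1.85 and 1.86 TPM in mutant libraries, without overlap (log2 1.22, limma adjusted p = 0.000456).

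The main cluster's share of a gene's tags fell slightly in some genes, and it stayed over 96% in every library of those genes. It was called lower in 13 of 49 (background 20.8% lower, 8% higher) and higher in none: rrp46, nop16, rrp15, nhp2, rrp12, nop4, rrp4, utp15, nop12, rrp41, utp23, utp8 and utp13. In rrp46 the share was 99.8%, 99.7% and 100% in the wild type and 97.6%, 97.0% and 97.5% in the mutant. Outside the main cluster rrp46 had 0.149, 0.158 and 0 TPM in wild-type and 0.947, 2.07 and 1.76 TPM in mutant libraries, most of it in a cluster at position -188 from the annotated start. Clusters outside the main one lay upstream in some of the 13 genes and downstream in others (in nop4 at position 58 and in utp8 at 108), and all but the nop16 cluster at -149 were too low to be tested singly. For nop16 the same quantity was 0.747, 0.473 and 0.506 TPM against 2.54, 3.66 and 3.02 TPM, and for rrp12 it was 0.498, 0.552 and 0.607 TPM against 1.68, 2.07 and 1.41 TPM. Mutant libraries were above wild-type ones in all 3 genes. The share was tested as log odds with 0.5 TPM added to each side, so it also falls when the gene itself falls: utp13 was called although its tags outside the main cluster were 0 in all wild-type libraries and at most 0.086 TPM in the mutant. In nop12, also called, the shares overlapped between groups. They were 100%, 100% and 99.8% in wild-type and 100%, 99.4% and 99.8% in mutant libraries. The number called was 8 with the replicate block or without wild-type replicate 1.

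Antisense start clusters lay in 5 of the genes. Of 7 such clusters with a mean of at least 1 TPM, 6 rose, against a background of 75.3% of 1520 antisense clusters called higher, so the count follows the rest of the genome. In utp13 a cluster at chrIII:871236-871252 on the minus strand, 1565 bp into the gene, had 0.0996, 0 and 0.101 TPM in wild-type and 10.02, 10.3 and 9.82 TPM in mutant libraries. These are 4 tags against 666 (log2 4.22, limma adjusted p = 8.13e-07). In nop12 a cluster at chrI:3508679-3508759 on the plus strand, 175 bp from the gene's end, had 0.149, 0.0789 and 0.202 TPM against 8.65, 7.89 and 8.11 TPM (log2 3.76, limma adjusted p = 1.011e-06). Both were near 0 in all wild-type libraries. In gar2 a cluster at chrI:1898856-1898916 on the minus strand had 0.996, 1.89 and 1.77 TPM against 10.8, 9.4 and 10.1 TPM (log2 2.39, limma adjusted p = 2.01e-05). The 3 clusters in utp25 summed to far more in the mutant, the largest rising from 4.1 ± 0.658 to 11.6 ± 2.58 TPM. In utp7 a cluster had 1.05, 0.71 and 0.86 TPM against 1.29, 4.91 and 1.007 TPM and was not called (limma adjusted p = 0.146), with only mutant replicate 2 high.

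Of the 4 genes with a risen antisense cluster, 3 were among those whose promoter fell (utp13, utp25 and gar2), and nop12 was close to the threshold. Of the other 55 tested genes, 4 fell. Over protein-coding genes the promoter was called lower in 15.2% of 797 genes with a risen antisense cluster and in 8.51% of 3888 without. In gar2 the antisense level in the mutant, 10.1 TPM, was small beside the promoter level of 1076 TPM. In utp25 the largest antisense cluster, at 11.6 TPM, exceeded the promoter level of 3.21 TPM.

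Sense clusters inside the genes numbered 36 in 20 genes, of which 5 rose (background 48.4% of 2922 clusters) and none fell (background 3.08%). In utp13 a cluster at chrIII:871270-871346 on the plus strand had 0, 0.473 and 0.152 TPM against 8.3, 9.91 and 10.6 TPM (log2 3.88, limma adjusted p = 4.11e-06). It starts 18 bp from the antisense cluster, so clusters on both strands rose at nearly the same place in utp13, upstream of its stop codon. In utp15 a cluster 1384 bp into the gene had 0.199, 0.394 and 0.253 TPM against 2.84, 4.01 and 3.07 TPM, and in utp7 one 1144 bp in had 0.498, 0.394 and 0.557 TPM against 2.93, 2.72 and 2.32 TPM. The other 2 lay past the stop codons of rrp42 (0.856 ± 0.367 and 2.28 ± 0.0396 TPM) and rrp2 (0.845 ± 0.366 and 1.7 ± 0.24 TPM), and the call in rrp2 ended when replicate 1 or 3 of either group was left out and with either scaling.

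**Figure D4:**
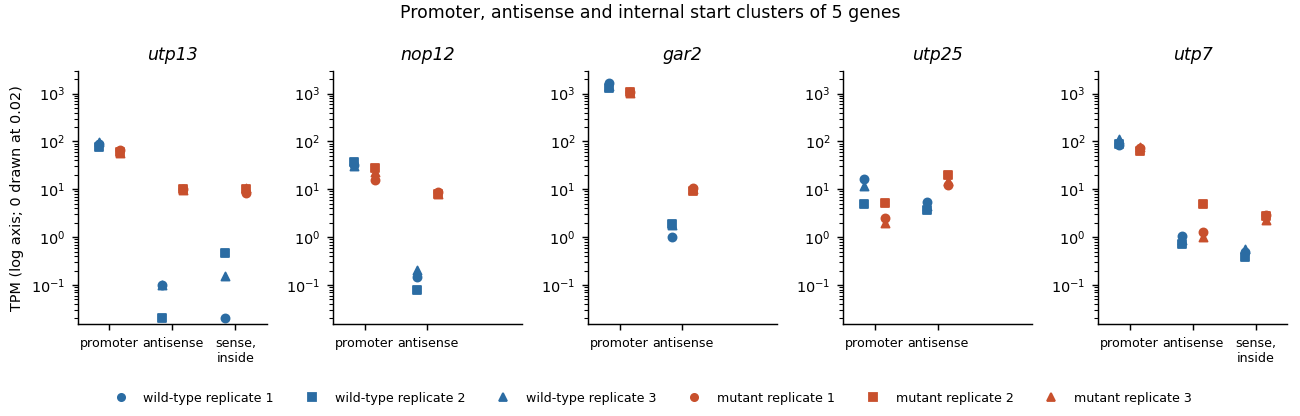
Promoter level, summed antisense clusters and, for utp13 and utp7, the risen sense cluster inside the gene, in each library (TPM, log axis; values of 0 drawn at 0.02). In utp13 and nop12 the antisense clusters stand near 10.03 and 8.21 TPM in the mutant and at or under 0.202 TPM in every wild-type library, whereas utp7 antisense is high in 1 mutant library only.

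Related gene lists were described in the same fit. The background for these lists is 9.65% of protein-coding genes lower and 16.9% higher. Of 139 ribosomal protein genes, 81 were lower and none higher, with a median log2 change of -0.51. The largest falls there were in rpl1603 (97.0 ± 4.95 to 39.9 ± 1.6 TPM) and rpl4102 (147 ± 36.1 to 67.4 ± 18.6 TPM). Of 65 ribosome assembly factor genes with other symbols, 10 were lower and none higher, with a median of -0.20, equal to that of the 59 to 2 decimals. The largest falls were in fal1, a helicase gene, from 61.6 ± 4.04 to 25.5 ± 2.17 TPM, and rlp7, from 179 ± 19.7 to 109 ± 8.19 TPM. Of 15 RNA polymerase I genes, rpa43, rpa12 and rrn6 were lower and none higher. The rpa43 subunit gene went from 295.3 ± 35.6 to 104.5 ± 13.9 TPM, and the median of this list was -0.21. None of 8 other exosome and TRAMP genes was called by limma on promoter sums of all 6 libraries under the scaling as deposited. The median of this list was -0.11. With median-of-ratios or TMM scaling limma called 2 lower (background 16.1% or 16.7%). On recovered tags edgeR called 2 lower (background 16.2%) and DESeq2 4 (background 18.7%). Of 14 snoRNA genes tested, snoR61, snoU24 and snoU18 were lower and snoR56 was higher, all with group means under 6 TPM. Differences between the lists were not tested, and all lists share the same 6 libraries.

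**Figure D5:**
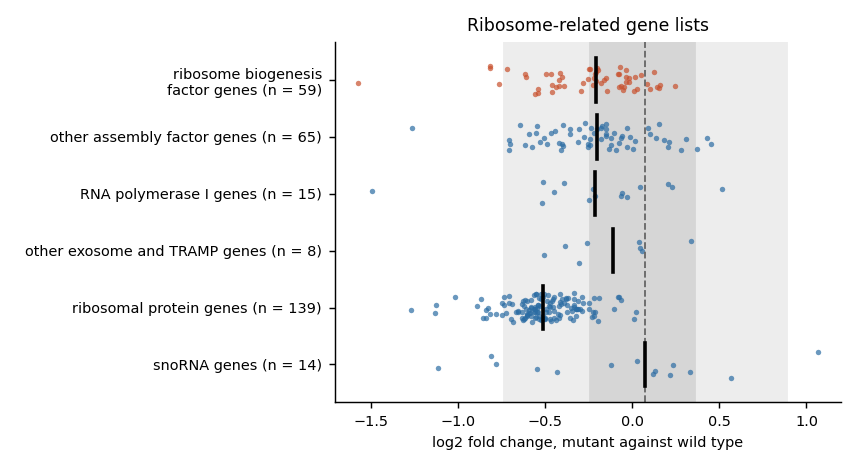
Log2 fold change of each gene (points) and the list median (black bars) for the 59 biogenesis genes and 5 related lists, beside the range of protein-coding genes (light band, 5th to 95th percentile; dark band, 25th to 75th; dashed line, median 0.08). Ribosomal protein genes sit furthest left with a median of -0.51, and the biogenesis genes at -0.20 lie between them and the protein-coding median. The 59 include rrp2.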

How the data were processed

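CAGE libraries of 3 wild-type and 3 mutant samples were analysed from the deposited tag cluster values. Per the file headers these are TPM, here tags per 1000000 tags (RPM), given by the authors for 108138 clusters shared by all libraries. The clusters hold 91.2% to 92.3% of the tags that the scale implies, so the scaling was to more tags than those in clusters. Between 99.7% and 99.8% of values above 0 were whole multiples of 1 tag (tolerance 0.02 tags), which gave the depths. The deposited pooled score per cluster, a signal the authors took over all libraries, was not tested. The submitters' processing notes name CASAVA 1.6, Bowtie 0.12.7, bedtools 2.15.0 and build ASM294v2 without their roles. The treatment of tags that map to several places is not given in the sources used here. Genes, start codons and sequences came from RefSeq ASM294v3. The initiator step at the deposited summits showed that both builds share positions at these promoters.

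Members and gene lists were chosen with earlier results of these data known. Promoter sums averaging 1 TPM or more were tested with limma 3.58.1 (R 4.3.3; empirical Bayes with trend, no replicate block) on log2(TPM + 0.5). Tests were two-sided, and p-values were adjusted by Benjamini-Hochberg over all 5610 genes, with a threshold of 0.05. That scale understates changes of low genes. Single clusters were tested alike, and start position and main cluster share with limma without trend. All mutant against wild-type calls over all genes were 511 lower and 1362 higher. On recovered tags, edgeR 4.0.16 called 834 and 1022, and DESeq2 1.42.0 called 947 and 1079. At 100 TPM counting error alone was 2.07% to 2.81% of a library's value. It is a minimum, because tags carry no molecular identifiers. Named genes were all members called, not tested or highest in their subgroup, those with the largest changes, and the most changed genes of each list. Values of other members beside them (rrp9, utp7, utp22, imp4, nop12, nop2, rrp4, rrp41, rrp43, rrp2, rrp1402) were chosen after their values were seen. The upstream sequence of 1 gene is not reported here.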

Additional observations from a re-analysis of the deposited data

How the results depend on the processing

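Limits. Members called lower numbered 7 by limma. No called result changed sign under the alternatives run, and the median log2 change of the members stayed between -0.36 and -0.12. The member median minus the all-gene median stayed between -0.38 and -0.28. Depth limits the weak upstream and internal clusters, most of which were under 5 TPM.

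The replicate block (the replicate number of the titles in the model) gave 2 members lower (gar1 and rrp14), against 285 of all 5610 genes tested. It also gave 48 ribosomal protein genes, 1 RNA polymerase I gene, 6 assembly factor genes and 1 snoRNA gene lower. Called with it were 6 member promoter clusters (lower), 0 start positions and 8 main cluster shares. Same-numbered libraries did not deviate together (r over all genes, which are not independent, of -0.21, -0.21 and -0.34), so the numbers may not mark pairs. Each wild-type library correlated best with a mutant library of another number: 1 with 2 (r 0.43), 2 with 3 (0.39) and 3 with 1 (0.41), a hint from the data and not from the design. Over the members alone these 3 combinations gave r of 0.79, 0.86 and 0.67. Same-numbered libraries gave -0.28, -0.49 and -0.58 over the members. Median-of-ratios scaling gave 16 members, 5 RNA polymerase I, 2 exosome and TRAMP and 24 assembly factor genes lower, 31 member promoter clusters lower and 5 internal sense clusters lower. TMM scaling gave 17, 6, 2, 26, 31 and 5. Over all 5610 genes tested these scalings called 833 and 858 lower. No background for single clusters under them is given here. For the same 4 gene lists edgeR gave 16, 6, 2 and 24, and DESeq2 19, 7, 4 and 30. The main cluster alone gave 1 exosome and TRAMP gene lower. Without a filter on low values 5 snoRNA genes and 14 member promoter clusters were higher. With a mean of at least 5 TPM, no snoRNA gene (0 lower, 0 higher), no internal cluster (0) and no promoter cluster (0) was called higher and 3 antisense clusters were, since fewer clusters were tested.

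Leaving out 1 library gave 3 to 9 members lower, 50 to 94 ribosomal protein genes lower, 3 to 13 assembly factor genes lower and 0 to 1 higher, 0 to 1 exosome and TRAMP genes lower and 0 to 1 higher, 1 to 3 snoRNA genes lower and 1 to 2 higher, 4 to 10 member promoter clusters lower, 2 to 5 start positions and 8 to 13 main cluster shares. Over all 5610 genes tested, these fits called 309 to 470 lower. Counts that moved over 1.5 times did so without wild-type replicate 1 (members, assembly factors, snoRNA genes, promoter clusters, shares), wild-type replicate 3 (assembly factors), mutant replicate 1 (promoter clusters, start positions), mutant replicate 2 (ribosomal proteins, assembly factors) or mutant replicate 3 (members, ribosomal proteins, assembly factors, promoter clusters), or, for counts of 0 or 1, without mutant replicate 1 or 2 (exosome and TRAMP), mutant replicate 1 (assembly factors higher) or wild-type replicate 2 (snoRNA genes higher). The causes were not tested. The edgeR and DESeq2 fits were not run for single clusters or start measures.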
